A study of Mus musculus with 12 samples.

Results

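The genes described here are the ErbB receptors, their ligands and a feedback inhibitor of the receptors in the mouse liver: Egfr, Erbb2 and Erbb3, then Areg, Btc, Ereg, Hbegf, Tgfa and Egf, and last Errfi1. They were chosen by name, with earlier results of these data known, as 10 of the 24361 genes with Ensembl transcripts in the table. RNA sequencing was done on whole livers of male C57/BL6N mice in 4 groups of 3 livers. The control group is labelled WT, with no carbon tetrachloride (CCl4) in its label, and the model group was injected into the abdomen with 5 mL/kg of a mixture of CCl4 and olive oil, 2 times per week for 8 weeks, a chemical injury that scars the liver. In the silibinin group and the phloridzin group the same injections went on for 8 weeks, and silibinin, a flavonolignan of milk thistle, or phloridzin, a dihydrochalcone glucoside, was given from week 5. The phloridzin dose was 40 mg/kg, the high dose of the study. Age, any oil injections of the control group, any vehicle given to the model group and the time between the last injection and collection of the liver are not given in the sources used here. Each treated group therefore differs from the control group by the injury and any drug together, and by the oil if the control livers had none. Each drug was present only while the injury continued. P-values measure only the spread between the 3 livers within a group. In the main tests this spread was pooled over all 4 groups and drawn towards that of other genes.

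ErbB receptors are receptor tyrosine kinases that pair with each other when a ligand binds, and they signal through ERK and AKT. Erbb2 binds no known ligand, and Erbb3 has a weak kinase and relies on a partner. In the liver this system is known for driving hepatocyte proliferation after injury, and ligands are made as membrane proteins that proteases release.

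Expression is given as FPKM, fragments scaled for transcript length and library size, summed over the Ensembl transcripts of a gene. All 12 markers of hepatocytes were present, and their summed FPKM lay between 20630 and 39570 in the 12 livers, led by Alb with a mean of 18380. Relative depth, read from the smallest step between low values, was lowest in model liver 1, at 75.5% of the deepest library (silibinin liver 2), and lay between 88.8% and 99.3% in the other livers. Of the 12 livers, phloridzin liver 1 was the farthest from its own group, with a root-mean-square distance of 0.71 on the log2 scale, against 0.53 to 0.63 in the other 11. Assembled transcripts without a gene held 25.5% to 29.8% of the summed FPKM in the control livers and 19.4% to 21.3% in the other livers, so FPKM of annotated genes was not on the same footing in all groups.

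The level of the genes differed widely. In the control group, Errfi1 had 363 ± 61.9 FPKM (SD, n = 3), Erbb3 had 53.8 ± 2.48, Egfr had 10.5 ± 3.36 and Tgfa had 4.39 ± 2.47. Btc followed with 0.927 ± 0.367, Erbb2 with 0.348 ± 0.0408 and Hbegf with 0.304 ± 0.0570. Egf had 0.259 ± 0.00577, Ereg had 0.148 ± 0.0396 and Areg was listed at 0 in each control liver. Erbb2 and Hbegf, and Hbegf and Egf, were neighbours in this order that lay within the spread of their livers. In the model group the order changed to Errfi1 with 317 ± 55.0, Erbb3 with 21.1 ± 4.85, Tgfa with 8.52 ± 0.907 and Egfr with 6.94 ± 0.738. Below these, Btc had 4.88 ± 1.05, Areg had 2.54 ± 0.530 and Hbegf had 0.973 ± 0.393. Erbb2 had 0.714 ± 0.108, Ereg had 0.621 ± 0.0423 and Egf had 0.355 ± 0.222, and the livers of each of these 4 genes overlapped with those of the next. Tgfa and Egfr overlapped as well.

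**Figure D1:**
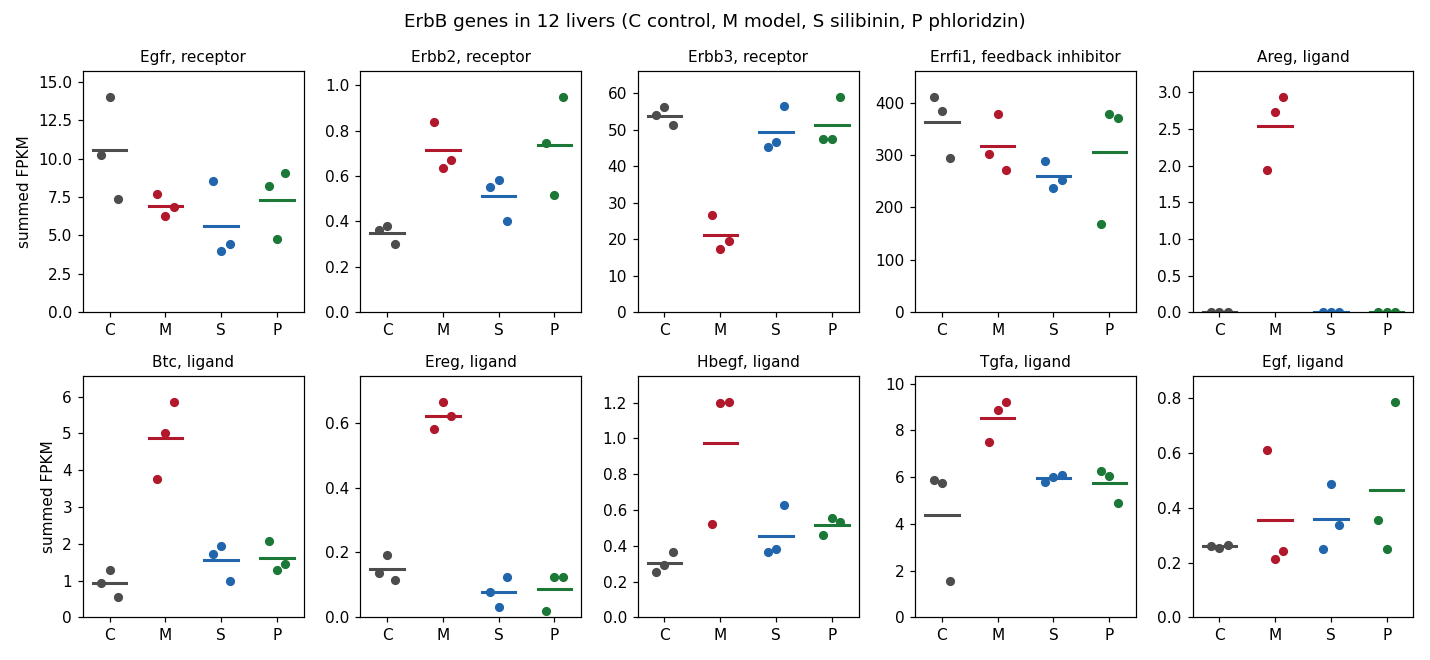
Summed FPKM (vertical axis, from 0) of each of the 10 genes in each of the 12 livers, by group; points are livers and bars are group means. The 3 model livers lie below all other livers for Erbb3 and above all other livers for Areg, Btc, Ereg and Tgfa.

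A gene was tested where its mean over the 12 livers was at least 0.5 FPKM, and 8 of the 10 genes passed this filter. Areg and Hbegf did so only through the model livers, with means of 0 and 0.426 FPKM over the other 9 livers, so they had to differ and nothing is read from a count that holds them. Tests were made with limma on log2(FPKM + 1), a scale that understates the change of genes at low levels, and a gene was called DE at an adjusted p under 0.05 with a log2 fold change past 1 in either direction. In the model group relative to the controls, 3 of the 8 tested genes were DE (Areg and Btc upregulated, Erbb3 downregulated), and 6 of the 8 passed by the adjusted p alone. Without Areg and Hbegf, 2 of 6 were DE, beside 10.5% of all 13175 tested genes, and 4 of 6 passed, beside 34.9%. Silibinin relative to the model livers gave 3 DE genes of the 8, and 2 of the 6 without Areg and Hbegf, all that passed, beside 3.99% of all genes called DE and 14.1% passing. The phloridzin group compared with the model group had the same counts, beside 3.54% and 12.9% of all genes. These 3 comparisons share the model livers, so their values are given side by side and are not independent of each other.

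Between the 2 drug groups, limma called 0 of these 6 genes by either rule, none had an unadjusted p under 0.05, and voom called 0 as well. Of all genes 0.0228% were called by either rule, and 3.75% had an unadjusted p under 0.05. Against the control group, 0 of the 6 genes were DE or passed in either drug group. The background was 1.99% DE and 5.02% passing in the silibinin group, and 3.02% and 7.98% in the phloridzin group. An unadjusted p under 0.05 was found for 1 of the 6 genes in each of these 2 comparisons (Egfr for silibinin, Erbb2 for phloridzin), beside 21.5% of all genes for silibinin and 24.6% for phloridzin, and voom called 0 of the 6 DE in both. Areg, at 0 in all of these livers, could not be called here.

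The scale of all genes matters for these changes. As deposited, the median log2 fold change over all tested genes was 0.34 in the model group relative to the controls, and scaling each liver by median ratios moved it by -0.35 to -0.01. Of the DE genes, 89.7% were higher in the model group as deposited and 50.5% after scaling. In the drug groups compared with the model group the shift was 0.16 for silibinin and 0.14 for phloridzin, and the share of DE genes that were higher went from 18.6% to 44.1% and from 17.2% to 37.1%. Erbb3 and Btc kept their calls in all 3 comparisons after scaling, and the values are given with each gene.

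**Figure D2:**
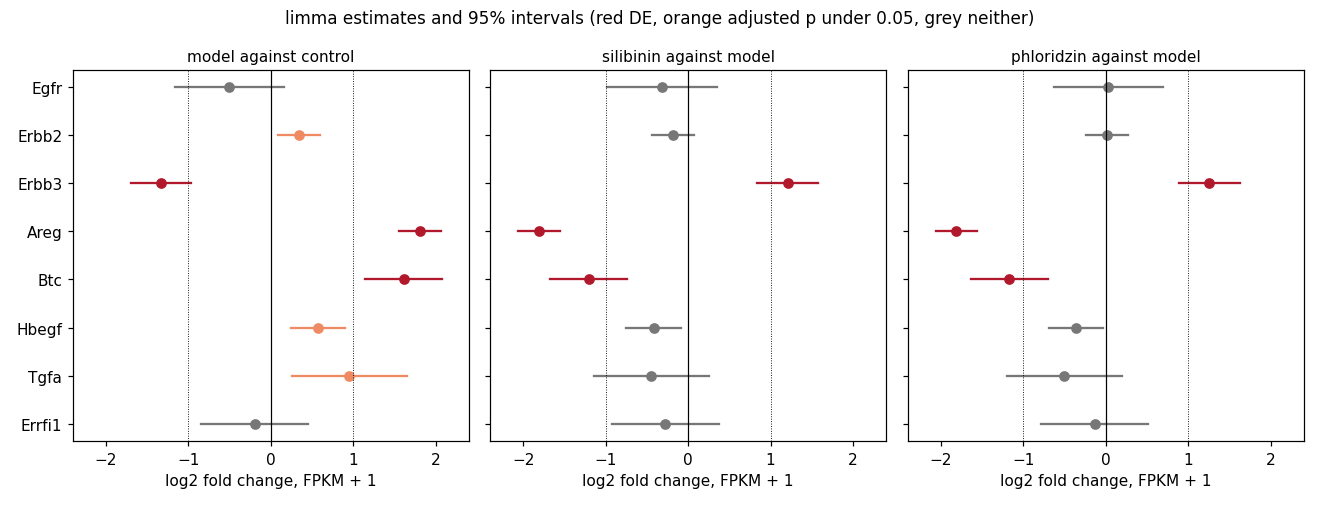
Log2 fold change on the log2(FPKM + 1) scale (horizontal axis) with its 95% interval from limma for the 8 tested genes, in the model group relative to the controls and in each drug group compared with the model group. The estimate for Erbb3 lies below -1 in the first panel and above 1 in the other two, and those for Areg and Btc lie on the opposite sides.

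Erbb3 (ENSMUSG00000018166, chr10:128567523-128589652, minus strand) is the receptor that binds neuregulins and recruits PI3-kinase once its partner has phosphorylated it. Its summed FPKM was 54.0, 56.1 and 51.2 in the control livers, 26.5, 17.3 and 19.4 in the model livers, 45.3, 46.6 and 56.4 in the silibinin livers and 47.5, 47.3 and 59.0 in the phloridzin livers. All 3 model livers lay below each of the other 9, and the control, silibinin and phloridzin livers overlapped. The log2 fold change was -1.33 (SE 0.17, adjusted p = 0.00035) in the model group relative to the controls and -1.79 after scaling. It was 1.21 (SE 0.17, adjusted p = 0.0013) in the silibinin group and 1.26 (SE 0.17, adjusted p = 0.001) in the phloridzin group, each compared with the model group, with 1.42 and 1.43 after scaling. Compared with the control group, the silibinin group differed by -0.12 (95% interval -0.49 to 0.24) and the phloridzin group by -0.07 (-0.44 to 0.29). Scaling took these to -0.38 (limma adjusted p = 0.27) and -0.36 (adjusted p = 0.28). A single transcript, Erbb3-201, carried the whole value.

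Erbb3 is a gene of hepatocytes, and in whole livers fewer cells of a type and less RNA per cell cannot be told apart. The summed hepatocyte markers were 23450, 27420 and 24040 FPKM in the control livers and 20630, 29290 and 32620 in the model livers, with overlap between the groups. Of the 12 hepatocyte markers, 1 passed the test in the model group (Cyp2e1, lower by a log2 fold change of -2.35, a CYP that metabolizes CCl4) and 11 did not. The median of the 12 was 0.03, beside 0.34 over all genes, and after scaling it was -0.44, beside -0.01, with 2 of the 12 lower.

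Egfr (chr11:16752203-16918158, plus strand), the receptor of EGF, TGF-alpha and amphiregulin, gave 10.2, 14.0 and 7.35 FPKM in the control livers and 7.72, 6.26 and 6.85 in the model livers. The silibinin livers had 8.52, 3.96 and 4.42 and the phloridzin livers 8.20, 4.75 and 9.05. The groups overlapped in all 6 comparisons, and none passed the test. The log2 fold change in the model group relative to the controls was -0.50 (95% interval -1.16 to 0.16), and after scaling -0.92 (limma adjusted p = 0.038). With silibinin relative to the controls it was -0.82 (-1.48 to -0.16, adjusted p = 0.15), and -1.05 after scaling (adjusted p = 0.066).

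The Egfr sum was a mixture. Egfr-205, a short transcript annotated as processed, made up 54.2% of it, while the full-length coding transcript Egfr-201 made up 8.80% and reached at most 1.85 FPKM, in control liver 1. Egfr-202, a shorter coding form, stood at 9.09 FPKM in control liver 2 and between 0.0191 and 3.31 in the other livers. Rows from the NONCODE catalogue of long noncoding RNAs within the gene, 5 of them on its strand, summed to between 30.1 and 138 FPKM, against 3.96 to 14.0 for the Ensembl transcripts. The row at the 3′ end (NONMMUT008659.2, chr11:16915768-16918152) ended close to the annotated end of the gene and had 67.2, 35.6 and 40.03 FPKM in the control livers. It had 0.130, 63.6 and 28.4 in the model livers, 35.7, 10.3 and 19.3 in the silibinin livers and 0.131, 0.128 and 49.3 in the phloridzin livers. Model liver 1 and phloridzin livers 1 and 2 were near 0 there while the other 9 were at 10.3 or more, and this did not follow the groups. With the NONCODE rows added to the sum, an alternative chosen after seeing the data, the model group differed from the control group by 0.24, with the sign turned. The level of Egfr thus depends on which rows are counted.

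**Figure D3:**
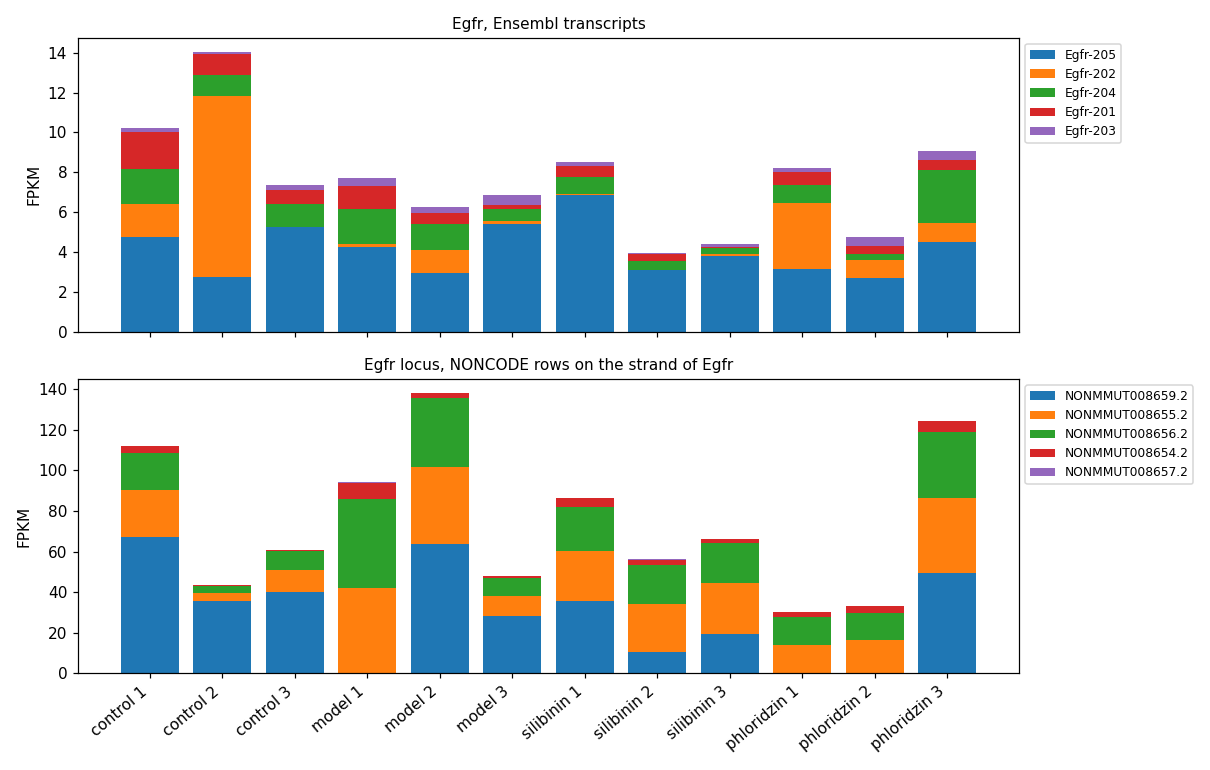
FPKM (vertical axes, from 0) of the Ensembl transcripts of Egfr and of the NONCODE rows on its strand, stacked for each of the 12 livers. The NONCODE rows sum to 30.1 to 138 FPKM and the Ensembl transcripts to 3.96 to 14.0, and row NONMMUT008659.2 is near 0 in model liver 1 and phloridzin livers 1 and 2.

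Erbb2, the partner receptor without a ligand of its own, was low. It had 0.360, 0.381 and 0.302 FPKM in the control livers, 0.837, 0.636 and 0.668 in the model livers, 0.553, 0.583 and 0.400 in the silibinin livers and 0.746, 0.516 and 0.949 in the phloridzin livers. Each control liver lay below every liver of the other groups. In model livers the log2 fold change was 0.35 (SE 0.12) with a limma adjusted p of 0.04, which passed, and it was 0.19 with an adjusted p of 0.24 after scaling. The call was also lost without any 1 of the control or model livers or silibinin liver 1 or 2, with adjusted p between 0.051 and 0.12. The phloridzin group compared with the control group had 0.36 (SE 0.12) and missed the threshold with an adjusted p of 0.084. In phloridzin liver 3 the processed transcript Erbb2-202 gave 0.504 of the 0.949 FPKM.

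Among the ligands, Areg encodes amphiregulin (ENSMUSG00000029378, chr5:91139599-91148432, plus strand), which binds Egfr. The symbol column of the table gives its only transcript, Areg-201, the name Mcub, so the gene was found by its identifier. Areg was listed at 0 in the 3 control, 3 silibinin and 3 phloridzin livers and had 1.94, 2.73 and 2.94 FPKM in the model livers. The 3 model livers were therefore the only ones with a value above 0, and 1 other gene, Gm8818, named after its values were seen, was likewise at 0 in those 9 livers and above 1 FPKM in each model liver. The fitted difference was 1.81 (SE 0.11) in the model group relative to the controls (limma adjusted p = 6e-06), and it fell by 1.81 in both drug groups compared with the model group (adjusted p = 9.1e-06 for silibinin and 1.3e-05 for phloridzin). After scaling the differences were 1.64, -1.64 and -1.64. Areg was tested only because of the model livers, so nothing is drawn from these p. This size depends on the pseudocount, was 4.70 with a pseudocount of 0.1, and is no bound. Without model liver 2 or model liver 3 the mean of Areg fell under the filter and it was not tested. Since 9 of the livers had no spread, the SE rests on the 3 model livers and on the spread of other genes. A listed 0 need not mean absent RNA. Of 3418 genes with a mean of at least 10 FPKM, 20 were at 0 in some liver, and Proc, the hepatocyte gene of protein C, named after its values were seen, was at 0 in 7 livers and between 19.6 and 46.0 FPKM in the other 5. None of 15 genes used by all cells was at 0 in any liver. Fragments of Areg that the assembly placed in a row without a gene would not be counted here.

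Btc encodes betacellulin, a ligand of Egfr and Erbb4 (ENSMUSG00000082361, chr5:91357261-91402994, minus strand). It had 0.932, 1.29 and 0.559 FPKM in the control livers, 3.76, 5.02 and 5.86 in the model livers, 1.73, 1.95 and 0.998 in the silibinin livers and 2.08, 1.282 and 1.46 in the phloridzin livers. All model livers lay above the other 9, and the drug groups overlapped with the control group. The model group gave a difference of 1.61 (SE 0.21, limma adjusted p = 0.00045), and 1.304 after scaling. In the drug groups compared with the model group it was -1.21 (adjusted p = 0.005) for silibinin and -1.17 (adjusted p = 0.0059) for phloridzin, and -1.03 and -1.01 after scaling. The coding transcript Btc-201 made up 92.2% of the sum.

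Areg and Btc lie on the same chromosome and were both higher in the model livers, while Errfi1 has, in 1 of its 2 windows, a promoter with the same motifs as Areg and did not pass a test, so these 3 promoters are shown, chosen after the matches were seen. The windows come from RefSeq on build GRCm38.p6, 250 bases before to 50 after the start site, and they were taken for 7 of the 10 genes. Names without one were Erbb3, Ereg and Hbegf. Both strands were searched, and capitals mark matches. The cAMP response element was searched as TGACGTCA, which 1.79% of all 32851 promoter windows of the same length held. AP-1 was searched as TGANTCA, held by 7.81% of them. The TATA box was searched as TATAAA, held by 13.6%. The GC box was searched as GGGCGG, held by 35.7%.
Areg, chr5:91139349-91139648, plus strand: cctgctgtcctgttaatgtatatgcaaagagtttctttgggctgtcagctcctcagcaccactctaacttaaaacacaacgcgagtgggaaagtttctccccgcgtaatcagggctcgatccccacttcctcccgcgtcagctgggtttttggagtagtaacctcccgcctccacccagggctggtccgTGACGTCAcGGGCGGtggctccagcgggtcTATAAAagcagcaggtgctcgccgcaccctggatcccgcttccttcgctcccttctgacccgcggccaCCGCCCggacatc
Btc, chr5:91402945-91403244, minus strand: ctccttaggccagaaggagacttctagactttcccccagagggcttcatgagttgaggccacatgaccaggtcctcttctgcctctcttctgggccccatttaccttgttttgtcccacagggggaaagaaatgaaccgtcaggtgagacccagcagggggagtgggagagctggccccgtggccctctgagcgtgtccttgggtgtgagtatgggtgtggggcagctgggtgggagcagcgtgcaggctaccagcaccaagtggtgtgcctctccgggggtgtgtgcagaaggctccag
Errfi1, chr4:150854820-150855119, plus strand: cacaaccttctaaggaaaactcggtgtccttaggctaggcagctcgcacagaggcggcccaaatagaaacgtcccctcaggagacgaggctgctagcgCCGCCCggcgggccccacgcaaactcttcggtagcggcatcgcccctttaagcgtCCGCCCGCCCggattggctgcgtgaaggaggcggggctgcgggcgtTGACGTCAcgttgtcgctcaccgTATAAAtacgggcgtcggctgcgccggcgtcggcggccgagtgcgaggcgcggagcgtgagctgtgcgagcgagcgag
In Areg the cAMP response element began 61 bases before the start site and the TATA box 31 bases before it. Errfi1 had the same pair, 51 and 28 bases before the start, and 2 of its GC boxes overlapped. A second window of Errfi1, chr4:150853546-150853845, held none of the 4 motifs and is not shown. The window of Btc held none of the 4 motifs, and AP-1 was in none of the 3 windows. A match describes letters, and nothing is drawn from it about a factor.

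Tgfa encodes TGF-alpha, a ligand of Egfr that hepatocytes make. Its FPKM was 5.87, 5.76 and 1.54 in the control livers, 7.50, 8.85 and 9.22 in the model livers, 5.77, 6.02 and 6.10 in the silibinin livers and 6.27, 6.06 and 4.88 in the phloridzin livers. All model livers lay above the other 9, and control liver 3 lay below all others. The main coding transcript, Tgfa-201, was at 0.853 in that liver against 5.54 and 5.37 in the other control livers. In model livers the log2 fold change was 0.95 (SE 0.32, limma adjusted p = 0.038), and without control liver 3 it was 0.48 (adjusted p = 0.031). Without control liver 1 or 2 it was 1.20 and 1.19, past the fold for DE. The call was lost without any 1 of the model or silibinin livers or phloridzin liver 2, with adjusted p between 0.05 and 0.096. After scaling it was 0.56 with an adjusted p of 0.22, so the call did not hold. The drug groups compared with the model group had -0.45 and -0.50 and did not pass, and without control liver 3 both passed with adjusted p of 0.042 and 0.03.

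Hbegf encodes the heparin-binding EGF-like growth factor. Its values were 0.252, 0.295 and 0.365 FPKM in the control livers, 0.519, 1.20 and 1.20 in the model livers, 0.363, 0.380 and 0.628 in the silibinin livers and 0.458, 0.555 and 0.535 in the phloridzin livers. The model livers lay above the control livers, and model liver 1 lay within the range of the drug groups. The difference was 0.58 (SE 0.15, limma adjusted p = 0.013) in the model group, and 0.41 with an adjusted p of 0.071 after scaling. Without model liver 2 or 3 it was 0.49 in each case, with adjusted p of 0.051 and 0.05. Without model liver 1, the lowest of the 3, the differences from the model group were -0.60 (adjusted p = 0.014) for silibinin and -0.54 (adjusted p = 0.023) for phloridzin, against -0.42 and -0.36 with all livers, which did not pass. Hbegf was tested only because the model livers lifted its mean to 0.563 FPKM, so nothing is drawn from any of its p.

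Ereg and Egf were under the filter on low values. Ereg, which encodes epiregulin and lies on chromosome 5 as Areg does, had 0.138, 0.192 and 0.115 FPKM in the control livers, 0.579, 0.664 and 0.619 in the model livers, 0.0772, 0.0306 and 0.123 in the silibinin livers and 0.0190, 0.125 and 0.123 in the phloridzin livers. The model livers lay above the other 9. A two-sided exact permutation test on the mean log2(FPKM + 1) gave p = 0.1 for the model group against each of the other 3 groups, the smallest p that 3 livers against 3 allow. The difference was 0.50 from the control group, and it was -0.59 in the silibinin group and -0.57 in the phloridzin group from the model group. With the filter lowered to a mean of 0.1 FPKM, limma gave adjusted p of 0.00052, 0.00035 and 0.00045 for these 3 differences, none of which was past 1 in size. NONCODE rows on the strand opposite to Ereg had 0.0483 FPKM or less.

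Egf, the epidermal growth factor, is made mainly by the kidney and salivary glands. It had 0.260, 0.253 and 0.265 FPKM in the control livers, 0.611, 0.214 and 0.241 in the model livers, 0.250, 0.488 and 0.337 in the silibinin livers and 0.356, 0.251 and 0.786 in the phloridzin livers. The groups overlapped in all 6 comparisons, and the exact permutation p lay between 0.4 and 1. The coding transcript Egf-201 was 31.4% of the sum, and a retained intron, Egf-208, was 29.5%.

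Errfi1 encodes an adaptor that binds the kinase domain of Egfr and Erbb2 and inhibits it, and it is itself induced by receptor signalling. Its FPKM was 412, 385 and 293 in the control livers, 301 and 378 in model livers 1 and 2 and 272 in model liver 3. The silibinin livers had 289.6, 237 and 253 and the phloridzin livers 168, 378 and 369.9. The groups overlapped in 5 of the 6 comparisons, the exception being that all silibinin livers lay below all control livers, and phloridzin liver 1 was the lowest of the 12. None of the 6 passed the test. In model livers the log2 fold change was -0.20 (95% interval -0.84 to 0.46), and the widest difference was -0.47 (-1.12 to 0.18) with silibinin relative to the controls. After scaling these were -0.67 (limma adjusted p = 0.16) and -0.73 (adjusted p = 0.24). Errfi1-201 made up 86.0% of the sum, and a NONCODE row inside the gene had a mean of 56.7 FPKM that is not in it.

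Genes whose pattern over the 12 livers was most like the 3 DE genes were found by the root-mean-square difference of log2(FPKM + 1), each gene centred on its own mean, among 13167 other genes. For Erbb3 these were Slc25a34 at 0.18, Slc25a48 at 0.21 and Sphk2 at 0.21, where the SD of Erbb3 itself was 0.60. Sphk2, a sphingosine kinase, had 7.08, 7.72 and 8.76 FPKM in the model livers and between 17.4 and 23.0 in the other 9. For Areg they were Wfdc3 at 0.11, 6430548M08Rik at 0.11 and Adamts1, a secreted protease, at 0.12, with an SD of 0.83 for Areg. Wfdc3 had between 0.0228 and 0.244 FPKM outside the model livers, so it too reached the filter only through them. For Btc they were Pgm2 at 0.13, Spty2d1 at 0.16 and Cln8 at 0.18, with an SD of 0.67 for Btc.

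Of the other ErbB receptor and ligands, 5 of 6 genes were in the table and 2 passed the filter, Nrg1 and Nrg4. Nrg1, the neuregulin that binds Erbb3 and Erbb4, had 0.169, 0.364 and 0.398 FPKM in the control livers, 9.27, 7.78 and 8.50 in the model livers, 1.122, 1.10 and 0.201 in the silibinin livers and 2.13, 0.237 and 0.625 in the phloridzin livers. All model livers lay above the other 9. The log2 fold change was 2.86 in the model group (limma adjusted p = 2e-04), and -2.44 (adjusted p = 0.00088) and -2.36 (adjusted p = 0.0011) in the silibinin and phloridzin groups compared with the model group. Scaling gave 2.58, -2.25 and -2.19. Nrg4 had 0.75 in the model group and did not pass, with an adjusted p of 0.071. Erbb4, the fourth receptor, had between 0.122 and 0.705 FPKM in the 12 livers.

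The lists that follow are read against all genes, and they too were chosen with earlier results of these data known. In the model group relative to the controls, 31.1% of all genes passed upward and 3.78% downward, and after scaling 12.5% and 12.7%. For silibinin against the model livers 2.62% passed upward and 11.4% downward, and after scaling 5.6% and 6.35%. For phloridzin the shares were 2.5% and 10.4%, and after scaling 4.67% and 6.19%. Of all genes, 10.5% were DE in the model group, 3.99% for silibinin and 3.54% for phloridzin against the model livers. After scaling 970, 426 and 377 of 13095 genes were DE in these comparisons.

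Among genes of ligand shedding, 6 of the 7 tested passed upward in the model group relative to the controls and 0 downward, with a median log2 fold change of 0.82, beside 0.34 over all genes. Adam12, named after its values were seen, reached the filter only with the model livers, and without it 5 of 6 passed upward with a median of 0.86. Rhbdf1 and Rhbdf2, which bring the sheddase Adam17 to the cell surface, were DE with 1.35 and 1.19. Adam17 itself had 4.85 ± 0.708 FPKM (n = 3) in the controls and 9.95 ± 0.957 in the model livers, a log2 fold change of 0.91. After scaling, 3 of the 6 tested genes passed, and none was DE. In each drug group compared with the model group 1 of 7 passed, downward, and after scaling 0 of 6.

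Of 43 tested adaptors and kinases downstream of the receptors, 16 passed upward in the model group and 0 downward, with a median of 0.53, and the share is near the 31.1% of all genes. Src (1.71), Gab2 (1.16) and Akt2 (1.04) were DE. Src, a kinase that cooperates with Egfr, had 0.889, 0.831 and 0.572 FPKM in the control livers and 4.77, 4.79 and 4.70 in the model livers. After scaling 3 of the 43 passed upward and 2 downward, and Src was the only DE gene, with 1.41. In the drug groups compared with the model group 5 passed downward for silibinin and 7 for phloridzin, with none upward, and after scaling 1 passed downward for silibinin, and 2 downward and 1 upward for phloridzin. Pik3r1, a regulatory subunit of PI3-kinase, was DE for phloridzin with -1.05, which scaling took to -0.87 with an adjusted p of 0.065. Src was also DE with silibinin relative to the controls, with 1.18.

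Genes of receptor turnover and feedback had 16 of 26 upward and 1 downward in the model group, 9 of them DE and higher, with a median of 0.73, and after scaling 10 passed upward and 2 downward. The DE genes were the ERK and MAP kinase phosphatases Dusp5 (2.89), Dusp4 (2.48), Dusp6 (2.16), Dusp10 (1.72) and Dusp1 (1.495), and Spred1 (1.39), Sh3kbp1 (1.04), Cblb (1.03) and Ptpn1 (1.03). Dusp6 had 8.24, 7.03 and 7.75 FPKM in the control livers, 27.5, 52.9 and 36.3 in the model livers, 11.6, 14.6 and 7.74 in the silibinin livers and 17.2, 9.97 and 7.83 in the phloridzin livers. Its model livers lay above the other 9. The 5 Dusp genes were DE and lower in both drug groups compared with the model group, with Dusp4 at -2.78 for each drug, Dusp5 at -2.38 and -2.28, Dusp6 at -1.69 and -1.68, Dusp10 at -1.48 and -1.64 and Dusp1 at -1.09 and -1.14 for silibinin and phloridzin. By the adjusted p alone, 10 genes of the list passed downward and 2 upward for silibinin, and 8 downward and 1 upward for phloridzin. The upward ones, named after their values were seen, were Cblc with 0.71 and Erbin with 0.60 for silibinin and Cblc with 0.60 for phloridzin. After scaling 4 passed downward and 2 upward for silibinin, and 5 and 2 for phloridzin. After scaling the 5 Dusp genes were the DE genes of this list in the model group, and Dusp1 was no longer called in the drug groups, with -0.89 and -0.96.

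Of 17 tested ERK-induced early genes, 13 passed upward in the model group, all 13 DE, and 0 downward, with a median of 1.93. Egr2 reached the filter only with the model livers. Without it 12 of 16 were DE with a median of 1.90, beside 10.5% of all genes DE. The 13 were Atf3 (5.14), Jun (2.89), Klf6 (2.77), Myc (2.52), Plaur (2.48), Fos (2.48), Ier3 (2.20), Egr1 (2.18), Egr2 (1.93), Fosl2 (1.63), Ier5 (1.305), Jund (1.20) and Junb (1.11). Atf3, a stress-induced transcription factor, had 0.326, 0.242 and 0.350 FPKM in the control livers, 42.6, 42.8 and 50.2 in the model livers, 2.43, 2.24 and 0.934 in the silibinin livers and 3.24, 1.502 and 1.51 in the phloridzin livers. Its drug livers lay above the control livers and below the model livers, and it was DE in both drug groups compared with the control group, with 1.09 and 1.19. Relative to the controls, 5 of the 17 genes passed upward in each drug group, 2 of them DE, and 0 passed downward. The shares of all genes passing upward were 4.58% for silibinin and 7.5% for phloridzin. After scaling 1 passed upward for silibinin and 4 for phloridzin, 1 of them DE in each, beside 3.04% and 4.07%. Silibinin had 10 DE genes of the 17 and phloridzin 11 compared with the model group, all lower, beside 3.99% and 3.54% of all genes DE. The list medians were -1.16 and -1.39, beside -0.15 and -0.11 over all genes. Without Egr2, 9 and 10 of 16 were DE, with medians of -1.11 and -1.31. After scaling, 10 of the 17 were DE in the model group and 8 and 10 in the drug groups, beside 970, 426 and 377 of all 13095 genes. Egr2 was among them each time, with 1.755 in the model group and -1.379 and -1.53 for silibinin and phloridzin. It had to differ, so nothing is read from its call in these counts. These genes respond to many signals besides ErbB receptors, and the livers' time after the last CCl4 injection is not known here.

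**Figure D4:**
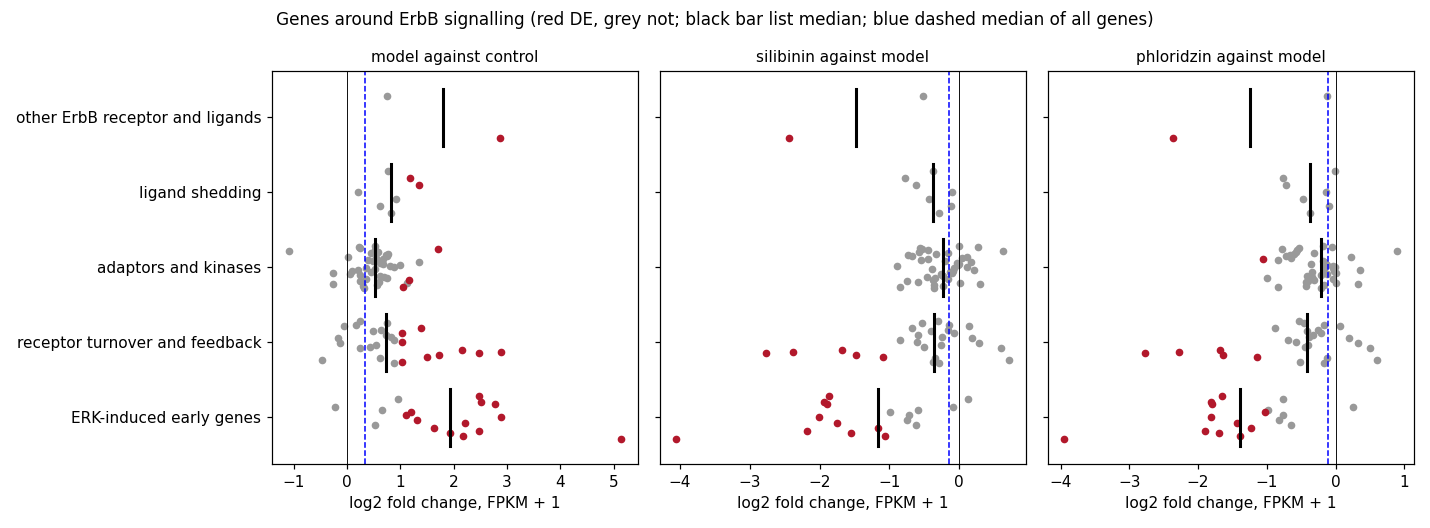
Log2 fold change on the log2(FPKM + 1) scale (horizontal axis) of each tested gene in 5 lists around ErbB signalling, in the model group relative to the controls and in each drug group compared with the model group. The median of the ERK-induced early genes, Egr2 included, is 1.93 in the first panel, beside 0.34 over all genes, and -1.16 and -1.39 in the other two.

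Markers of other cells of the liver were summed as well. The 10 markers of stellate cells and myofibroblasts summed to 34.6, 25.1 and 28.9 FPKM in the control livers, 174, 142 and 177 in the model livers, 168, 161 and 80.9 in the silibinin livers and 227, 95.4 and 74.9 in the phloridzin livers, led by Col3a1. Of these 10, 8 passed upward in the model group, 6 of them DE, beside 31.1% of all genes passing upward, and after scaling 6 passed. Macrophage markers, 11 genes led by Cd5l, summed to 113, 182 and 142 in the control livers and 212, 345 and 276 in the model livers, with 229, 287 and 252 in the silibinin livers and 417, 382 and 236 in the phloridzin livers, and 5 of 11 passed upward in the model group and 3 after scaling. Relative to the controls, 3 of the 11 passed upward with silibinin, beside 4.58% of all genes, and 7 with phloridzin, beside 7.5%. After scaling these were 3, beside 3.04%, and 2, beside 4.07%. Cholangiocyte markers, 8 genes led by Spp1, summed to 20.1, 18.6 and 25.0 in the control livers and 56.4, 62.9 and 59.1 in the model livers, with 57.8, 54.9 and 29.9 in the silibinin livers and 61.1, 37.7 and 34.1 in the phloridzin livers, and Krt7, Epcam and Cftr were under the filter. Of the 5 tested, 2 passed upward in the model group and 1 after scaling. Relative to the controls, 0 of these 5 passed upward with silibinin and 1 with phloridzin, also after scaling. Of the 10 stellate cell markers, 4 passed upward with silibinin and 3 with phloridzin relative to the controls, and 3 and 2 after scaling. In the drug groups compared with the model group, 0 of 10 stellate cell markers passed for silibinin and 1 for phloridzin, and 0 of the tested macrophage and cholangiocyte markers passed. The part of these cells in the results was not tested.

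The remaining lists were smaller. Endothelial markers (8 genes, led by Clec4g) lay between 40.1 and 106 FPKM in the 12 livers, and none of 8 passed in the model group. Neutrophil markers (6 genes, led by S100a8) lay between 7.16 and 77.2 and 1 of 3 tested passed, as did 1 after scaling, with Ly6g, Mpo and Cxcr2 under the filter. Lymphocyte markers (9 genes, led by Nkg7) lay between 1.99 and 11.7, and 1 of 5 passed, with 0 after scaling. Mesothelial markers (4 genes, led by Msln) lay between 0.834 and 2.11 in the control livers and between 5.01 and 13.7 in the other 9, and 2 of 3 passed, with 1 after scaling. Exocrine pancreas markers lay between 4.75 and 11.4, nearly all from Cela1, with 3 of the 4 in the table under the filter and 1 of these at 0 throughout. Cela1 did not pass in the model group, with -0.38, and after scaling it was lower, with -0.79 (limma adjusted p = 0.0098). Red blood cell markers (5 genes, led by Hbb-bs) lay between 978 and 1148 in the control livers and between 265 and 896 in the other 9, and 0 of 5 passed in the model group, where scaling gave 2 lower. Against the model group, 1 of these 5 passed upward for silibinin, beside 2.62% of all genes, and 0 for phloridzin. After scaling 1 passed upward for each drug, beside 5.6% for silibinin and 4.67% for phloridzin. Relative to the controls, 1 of the 5 passed downward with each drug, also after scaling. Downward over all genes were 58 of 13175 with silibinin and 63 with phloridzin as deposited. Of the 12 hepatocyte markers, 1 passed downward with phloridzin, also after scaling. Mesothelial markers passed upward in 2 of 3 with silibinin and 3 of 3 with phloridzin, and in 2 with each after scaling. For neutrophil markers 1 of 3 passed upward with phloridzin and 0 after scaling.

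**Figure D5:**
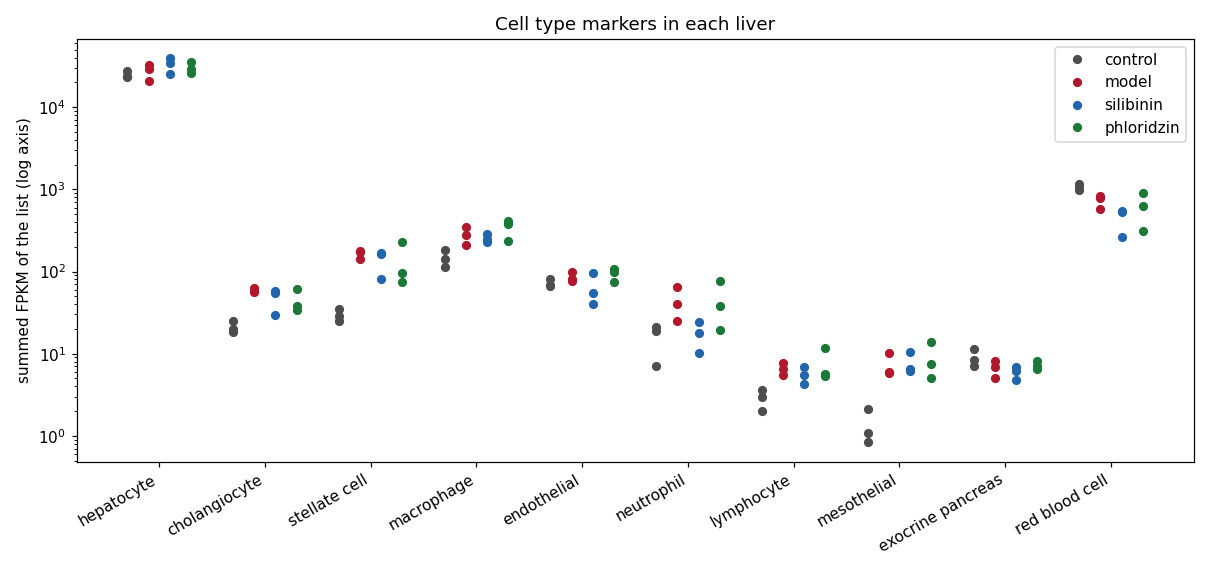
Summed FPKM of each list of cell type markers (vertical log axis) in each of the 12 livers, coloured by group. Hepatocyte markers lie between 20630 and 39570 in all livers, and stellate cell markers between 25.1 and 34.6 in the control livers and between 74.9 and 227 in the other livers.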

How the data were processed

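Per the labels and the study's methods, livers of 12 mice were sequenced. The authors deposited FPKM per transcript (169430 rows), and their processing notes name bcl2fastq, FastQC 0.11.5, HISAT2 2.1.0, StringTie 1.3.3b and DESeq 1.28.0 with build mm10. Silibinin was given at 27.3 mg/kg. Here the 82136 Ensembl rows were summed per gene identifier with GENCODE M21 names, since the symbol column differed for 635 genes, Areg among them. The 68303 NONCODE and 18991 assembled rows stayed out of the sums. Limma 3.58.1 in R 4.3.3 (trend on, pseudocount 1, mean of at least 0.5 FPKM, 4 groups in 1 fit, Benjamini-Hochberg over all genes, two-sided) gave the tests. Members and lists were chosen with earlier results of these data known. Named genes are the 10 members, list genes DE in at least 1 of 6 comparisons, 3 genes nearest to each DE member, and transcripts with the largest share. Erbb4, Nrg4, Adam17 and Cela1 were named after their values were seen, as were markers given as the most abundant of a list or as under the filter. FPKM times length gave whole multiples of a step for 98.7% to 98.9% of values under 20 steps (tolerance 0.05, transcripts of at least 1500 bases). More values stood at 4 steps (8394) than at 3 (4185) or 5 (3382), so a fragment can be several steps and only relative depth is given.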

Additional observations from a re-analysis of the deposited data

How the results depend on the processing

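The count of DE members in the model group relative to the controls was 3, and it was 5 with a pseudocount of 0.1 and 6 with no fold cutoff; leaving out each liver gave 2 to 4, and voom added Hbegf. It was 2 without model liver 2 or 3, since Areg then fell under the filter. Areg and Hbegf passed the filter only through the model livers, so nothing is read from these counts. Without both, the count was 2 of 6, with 3 at a pseudocount of 0.1 or 0.5, 4 with no fold cutoff, 2 with voom and 2 to 3 without single livers; 3 came without control liver 1 or 2. With the replicate number as a replicate block the count stayed at 3 in all 3 comparisons with the model group; livers with the same number did not deviate together (correlations of -0.09 to 0.10 over 18 pairs). The block took Erbb2 in the model group to an adjusted p of 0.062 and changed no other call of a member. Drug groups against each other or the control group had 0 DE members in every setting run. Over all genes, DE calls in the model group numbered 1384, against 2600 with a pseudocount of 0.1 and 2546 with voom on recovered steps. Voom gave 918 for silibinin against model (526 with limma), 810 for phloridzin against model (466), 568 for silibinin against control (262) and 708 for phloridzin against control (398). A pseudocount of 0.1 gave 704, 827 and 1103 in the last 3 of these, and 0.5 gave 457 and 711 in the last 2. The most abundant row gave 117 and 190 in these last 2, and 5 between drugs (3 with limma). For phloridzin against control, scaling gave 243 and fitting only the 2 groups 127, and the latter gave 0 between drugs. Without single livers the ranges were 101 to 400 for silibinin against control, 210 to 632 for phloridzin against control and 1 to 5 between drugs.

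Direction turned in values that had not passed. With the most abundant row of each gene, Egfr was 0.07 (silibinin) and -0.22 (phloridzin) against the model group, 0.064 (silibinin) against control and -0.29 between drugs, where Btc was -0.057. Chosen after seeing the data, added NONCODE rows gave Egfr 0.24 in the model group, -0.68 for phloridzin against model and -0.35 between drugs, and coding transcripts alone gave Btc -0.057 between drugs. Scaling gave Errfi1 0.052 for phloridzin against model. Leaving out single livers, phloridzin against model ranged from -0.12 to 0.28 (Egfr), -0.073 to 0.11 (Erbb2) and -0.33 to 0.25 (Errfi1). Between drugs the ranges were -0.052 to 0.15 (Erbb3), -0.13 to 0.15 (Btc), -0.11 to 0.041 (Tgfa) and -0.052 to 0.53 (Errfi1). Phloridzin against control ranged from -0.022 to 0.70 (Tgfa) and -0.53 to 0.056 (Errfi1). Egf, under the filter, ranged from -0.037 to 0.167 in the model group, -0.062 to 0.142 and -0.045 to 0.237 for silibinin and phloridzin against model and -0.057 to 0.2 between drugs, where Ereg ranged from -0.016 to 0.062. Egf in the model group was -0.016 after scaling and -0.077 with its most abundant row, which gave -0.06 and -0.046 for silibinin and phloridzin against control. The cause was not tested. Erbb2 and Tgfa in the model group each lost their call in 10 or more of the settings, single livers included. The symbol column would leave out Areg. Areg, Ereg, Egf, Hbegf and Erbb2 had the lowest means of the members over all livers, and the part of depth was not tested.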
